A study of Mus musculus with 6 samples.

Results

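The 33 genes described here belong to the interferon response and to antigen presentation by major histocompatibility complex (MHC) class I. They were given as a list by function, and probes were assigned to them through the RefSeq accession carried by each array probe. They are 33 of 19988 named genes on the array, and 41 probes represented them. Gene expression was measured in S-phase cells sorted from the dorsal telencephalon, which gives rise to the cerebral cortex, of C57BL/6J mouse embryos at embryonic day 14.5. Every embryo was heterozygous for a GFP knock-in at the Tis21 (Btg2) locus, so cells of both groups carried 1 reporter allele, and all cells were gated on a DNA content between 2N and 4N. Cells with and cells without Tis21-GFP signal (positive and negative below) were each measured on 3 arrays, with the RNA of an array from about 200000 cells pooled from 15 embryos, and the study used the sets it judged best among its independent experiments. Tis21-GFP marks progenitors that have switched to neuron production. The negative group was defined by absence of the reporter, and the labels describe no sort against blood, vessel or meningeal cells.

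Type I interferons bind the receptor chains Ifnar1 and Ifnar2, and interferon gamma binds a receptor that contains Ifngr1. The receptors act through Janus kinases on Stat proteins; Stat2 and Irf9 belong to a complex that binds the interferon-stimulated response element (ISRE) in the promoters of antiviral genes. Interferons also raise MHC class I, whose heavy chain pairs with B2m and is loaded with peptides that the immunoproteasome cuts and the Tap transporter carries into the endoplasmic reticulum. Class I genes are known for low expression in neural cells and high expression in immune cells, among them microglia, the macrophages of the brain.

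Btg2, the reporter locus, was higher in positive cells by a log2 difference of 0.77 ± 0.17 (moderated SE, n = 3 per group, limma adjusted p = 0.0139). The share of all probes well above background lay between 51.2% and 56.2% over the 6 arrays. Of 6 intermediate progenitor markers all 6 were called higher in positive cells and of 8 radial glia markers 7 were called lower, in a tissue whose progenitors are of these kinds. The 6 include Btg2 itself, which did not pass without Tis21-GFP negative replicate 1 (log2 difference 0.68). All values below are log2 intensities relative to the 75th percentile of the same array, so that 0 lies at that percentile; levels of different probes cannot be compared. Differences are positive minus negative. Besides this scaling, shared-probe scaling took the 75th percentile only among probes seen on every array. The alternative called normexp background took the median spot signal with an offset of 50 intensity units, followed by quantile normalization. A call is a limma adjusted p under 0.05 over all 13136 tested genes, and arrays are listed as replicates 1, 2 and 3. The median difference of all tested genes was 0.12, and no value below has that shift subtracted.

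Of the 33 genes, 25 were tested, because a probe for them was well above background throughout at least 1 group. The other 8 were Irf7, Ifit1, Ifit3, Rsad2, Ifi35, Usp18, Tap1 and Psmb8. In 7 of these no array had a probe well above background, and Ifi35 reached that level on 1 negative array. Those 8 therefore include several of the genes that interferon induces most strongly in other cells. Of the 25 tested genes, 18 were well above background on all 6 arrays, 6 passed only through the negative arrays and 1, Ifih1, only through the positive arrays. The 6 that passed through the negative arrays were Ddx58, Ifitm3, Oasl2, Bst2, Ifi27 and Psmb9.

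**Figure D1:**
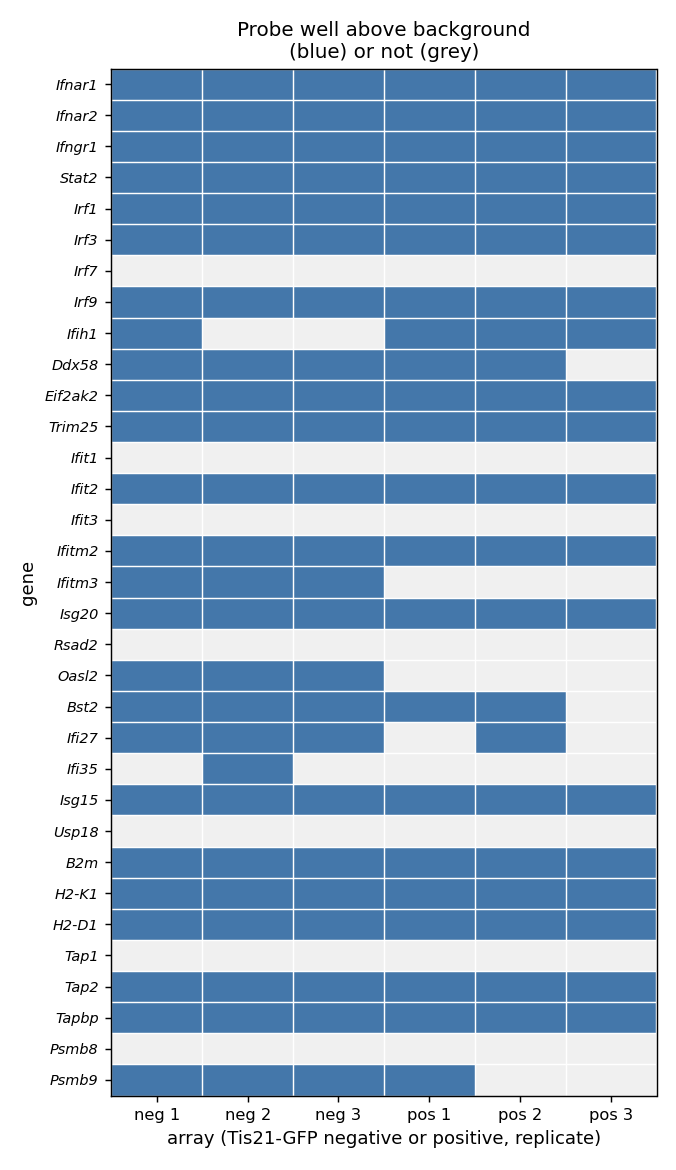
For each of the 33 genes (rows), whether its probe was well above background on each of the 6 arrays (columns, Tis21-GFP negative then positive). The probe shown is the tested one, or the one detected on most arrays where none was tested. Rows for 7 genes are grey throughout, and Ifitm3 and Oasl2 are blue on the 3 negative arrays and grey on the 3 positive arrays.

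Among the 18 genes with signal on all 6 arrays, 6 were called lower and 1 higher in positive cells. Over all genes with signal on all 6 arrays, 11.2% were called lower and 14.3% higher. The 6 were Irf1, Trim25, Isg20, B2m, H2-K1 and Tap2, and the gene called higher was Ifit2. The 6 genes that passed only through the negative arrays were also called lower; their entry into the test required signal in that group. Over all 25 tested genes 12 were thus called lower and 1 higher, where 13.1% of all tested genes were called lower, 12.8% higher and 25.9% in either direction. The groups did not overlap for 16 of the 25, against 46.7% of all genes, with the negative arrays above in 14 and the positive arrays in 2. The 14 include all 6 genes that entered the test only through the negative arrays. Of the 18 with signal on all 6 arrays, 55.6% did not overlap, 8 with the negative and 2 with the positive arrays above. The median difference of the 25 was -0.38, and it was -0.20 with median centring and -0.58 without Tis21-GFP negative replicate 1. Since these are bulk samples, fewer cells of a type and less RNA per cell cannot be told apart.

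**Figure D2:**
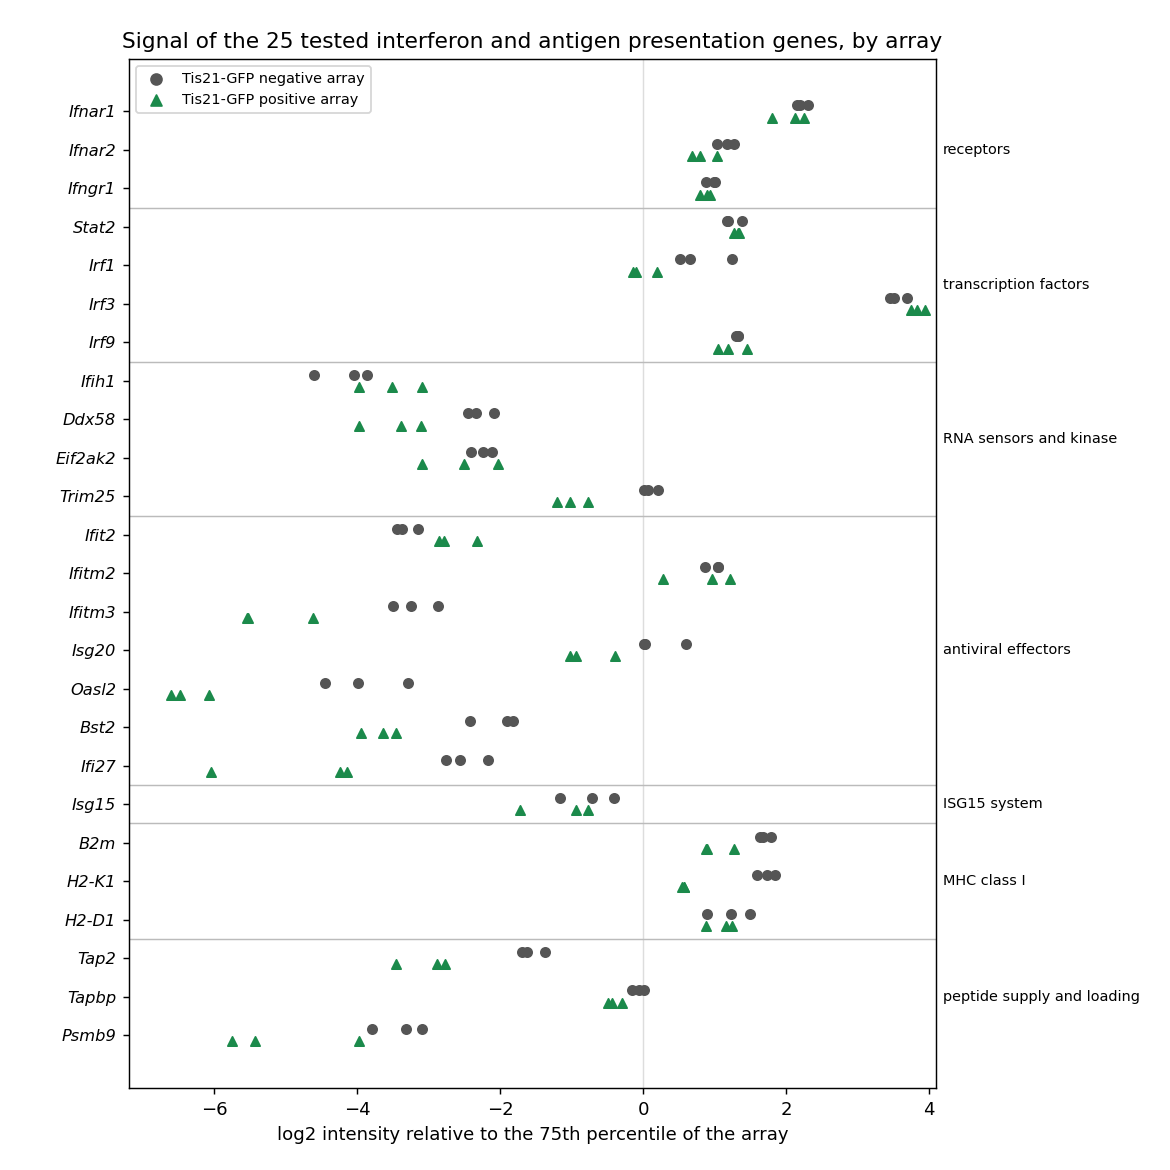
Log2 intensity of the 25 tested genes on each array, relative to the 75th percentile of that array, ordered by role. Grey circles are the 3 Tis21-GFP negative arrays and green triangles the 3 positive arrays. H2-K1, Trim25, Tap2 and Bst2 have separate groups, and the groups of Ifnar1, Ifngr1 and H2-D1 overlap.

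The receptor genes were well above background on all arrays, and 0 of 3 were called. Ifnar1, a chain of the type I interferon receptor, stood at 2.30, 2.20 and 2.15 in negative cells and at 2.13, 2.26 and 1.80 in positive cells. The groups overlapped, and the difference was -0.15 ± 0.16 (SE, limma adjusted p = 0.488). The other probes of Ifnar1 gave differences of -0.24 and 0.37, so the direction depended on the probe. Ifnar2, the other chain, was at 1.28, 1.18 and 1.03 in negative cells and 0.79, 1.03 and 0.69 in positive cells. Its difference of -0.32 ± 0.15 did not pass (limma adjusted p = 0.137), and it passed under shared-probe scaling (-0.50) and with normexp background (-0.42). Ifngr1, which binds interferon gamma, differed by -0.09 ± 0.12 (limma adjusted p = 0.63). The signs of Ifnar1 and Ifngr1 turned with median centring.

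Among the transcription factors, Irf1 was called lower and 3 others did not pass. Irf1 is itself induced by interferon gamma and activates class I genes. It stood at 1.24, 0.66 and 0.51 in negative cells and at 0.19, -0.09 and -0.14 in positive cells. All negative arrays lay above all positive arrays, and the first negative array was the highest. The difference was -0.82 ± 0.21 (limma adjusted p = 0.0247), and 10 of 16 alternatives kept the call. Median centring (-0.64) and testing dim probes too (-0.82) lost it, as did leaving out negative replicate 1 (-0.60) or 2 (-0.89) or positive replicate 2 (-0.78) or 3 (-0.76). Irf3, which acts downstream of cytoplasmic nucleic acid sensors, was at 3.46, 3.69 and 3.51 in negative cells and 3.75, 3.94 and 3.83 in positive cells. The groups did not overlap, yet the difference of 0.29 ± 0.13 did not pass (limma adjusted p = 0.143). Stat2 and Irf9, of the ISRE-binding complex, differed by 0.07 ± 0.13 (limma adjusted p = 0.714) and -0.09 ± 0.14 (limma adjusted p = 0.662). Of 5 other scalings and backgrounds, 4 gave Stat2 a negative sign, and that of Irf9 was positive with median centring. Stat2 was at 1.38, 1.18 and 1.18 in negative cells and 1.34, 1.27 and 1.33 in positive cells, with overlapping groups. Irf7, the factor that amplifies type I interferon production, was not well above background on any array.

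Promoter windows show how far the ISRE letters reach in these genes. RefSeq windows of GRCm38.p6, from 250 bases before to 50 after each annotated start, were found for 30 of the 33 genes, leaving out Usp18, Ifi27 and Tap2. The ISRE core was searched as a pair of GAAA half-sites in the same orientation with 2 bases between them, and the interferon gamma activated site (GAS) as TTCNNNGAA, on both strands, with overlapping matches counted separately. The ISRE core was in at least 1 window of 12 of 30 genes, against 3.99% of 27025 genes with a window, and the GAS was in 10 of 30, against 9.55%. In 2 windows a match of 1 motif overlapped a match of the other. The genes were chosen by their function, so this share describes the list and was not tested. Of the 12 with an ISRE core, 4 were called lower (B2m, Bst2, Ddx58 and Ifitm3), 5 were tested and not called, and 3 were not tested (Ifit1, Ifit3 and Rsad2). Of the 18 without one in the window, 6 were called lower, 1 higher and 7 not, and 4 were not tested. Only exact matches were counted, so a window without one, such as those of H2-K1 and H2-D1, may still hold a variant of the element. The 250 bases upstream of the start are printed for 4 genes that carry the ISRE core and had different readouts, with the matches in capitals. B2m (chr2:122147437-122147686, plus strand) and Bst2 (chr8:71537473-71537722, minus strand) were called lower. Isg15 (chr4:156200819-156201068, minus strand), with 3 overlapping matches, was not called, and Ifit1 (chr19:34640639-34640888, plus strand), with 2 matches, had no array with a probe well above background.
B2m: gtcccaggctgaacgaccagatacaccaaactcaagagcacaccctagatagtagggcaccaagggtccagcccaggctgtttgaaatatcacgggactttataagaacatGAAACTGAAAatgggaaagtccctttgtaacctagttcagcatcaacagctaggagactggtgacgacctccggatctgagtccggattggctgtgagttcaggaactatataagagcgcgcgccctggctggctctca
Bst2: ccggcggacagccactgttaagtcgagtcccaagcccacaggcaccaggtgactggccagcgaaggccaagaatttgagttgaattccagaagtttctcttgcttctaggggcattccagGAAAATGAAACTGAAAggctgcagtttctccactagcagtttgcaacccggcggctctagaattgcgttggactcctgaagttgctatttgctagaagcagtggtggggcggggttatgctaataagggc
Isg15: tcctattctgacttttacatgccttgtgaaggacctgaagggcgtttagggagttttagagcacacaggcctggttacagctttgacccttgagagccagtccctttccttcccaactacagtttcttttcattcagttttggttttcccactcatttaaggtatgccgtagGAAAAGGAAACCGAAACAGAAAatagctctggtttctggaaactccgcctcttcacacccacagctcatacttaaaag
Ifit1: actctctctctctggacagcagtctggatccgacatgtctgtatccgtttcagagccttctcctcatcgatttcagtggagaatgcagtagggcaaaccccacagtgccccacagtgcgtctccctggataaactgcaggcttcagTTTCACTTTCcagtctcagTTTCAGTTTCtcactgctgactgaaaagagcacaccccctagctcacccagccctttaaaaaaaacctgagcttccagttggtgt

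Of the 4 sensors of viral RNA and their partners, 2 were called lower. Trim25, a ubiquitin ligase that activates the RNA sensor Ddx58 (RIG-I), was at 0.06, 0.01 and 0.21 in negative cells and -0.76, -1.20 and -1.03 in positive cells. The groups were apart on every array, with a difference of -1.09 ± 0.15 (limma adjusted p = 0.00187), and Trim25 was called in all 16 alternatives. Ddx58 was at -2.33, -2.45 and -2.09 in negative cells and at -3.11, -3.39 and -3.98 in positive cells, where 2 of 3 arrays were well above background. Its difference was -1.20 ± 0.23 (limma adjusted p = 0.00755), and -0.38 with normexp background. Ifih1 (MDA5), the other sensor, was well above background on 3 positive arrays and 1 negative array, with a difference of 0.65 ± 0.27 that did not pass (limma adjusted p = 0.11). Its arrays stood at -3.86, -4.61 and -4.05 in negative cells and -3.98, -3.09 and -3.52 in positive cells, and the first positive array lay within the negative range. Eif2ak2 (PKR), a kinase that halts translation on binding double-stranded RNA, was at -2.41, -2.24 and -2.11 in negative cells and -2.50, -3.10 and -2.03 in positive cells. It differed by -0.29 ± 0.26 (limma adjusted p = 0.419) with overlapping groups.

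Of 11 antiviral effectors, 7 were tested, 5 were called lower and 1 higher. Bst2 (tetherin), which holds budding virus at the cell surface, was at -1.90, -1.82 and -2.42 in negative cells and -3.64, -3.47 and -3.95 in positive cells. The groups were apart by -1.64 ± 0.20 (limma adjusted p = 0.00107). Isg20, an exonuclease, was at 0.02, 0.03 and 0.61 in negative cells and -0.93, -1.02 and -0.39 in positive cells, a difference of -1.001 ± 0.23 (limma adjusted p = 0.0158). A second Isg20 probe differed by -0.93. Without Tis21-GFP negative replicate 3, Isg20 did not pass, at -0.81.

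Ifitm3 and Ifitm2 encode membrane proteins that block entry of viruses. Ifitm3 was at -2.87, -3.50 and -3.25 in negative cells and -4.62, -5.53 and -5.55 in positive cells, where no array was well above background. The fitted difference was -2.02 ± 0.28 (limma adjusted p = 0.00166). Set against the lowest signal called well above background, the group means gave a lower bound of 1.84-fold. Ifitm2 was at 1.05, 1.05 and 0.87 in negative cells and 0.96, 1.21 and 0.28 in positive cells, and its difference of -0.17 ± 0.23 did not pass (limma adjusted p = 0.609). Its sign turned with median centring and without positive replicate 3. The paralogs share sequence, and cross-hybridisation of their probes was not tested.

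Oasl2, of the oligoadenylate synthetase-like proteins, was at -3.98, -4.45 and -3.30 in negative cells and -6.49, -6.61 and -6.08 in positive cells, where no array reached that level above background. Its fitted difference was -2.48 ± 0.29 (limma adjusted p = 0.000817), and the lower bound was 1.13-fold. Ifi27, an interferon-induced membrane protein gene, was at -2.17, -2.57 and -2.76 in negative cells and -4.24, -4.15 and -6.05 in positive cells, with 1 positive array well above background. It differed by -2.31 ± 0.47 (limma adjusted p = 0.00982). The normexp alternative adds an offset of 50 intensity units, which shrinks differences of dim probes, and also differs in signal and scaling. Under it the values were -0.34 for Ifitm3, which then did not pass, -0.54 for Oasl2, -0.54 for Bst2 and -0.60 for Ifi27.

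Ifit2, which binds viral RNA, was the 1 member called higher. It stood at -3.38, -3.45 and -3.14 in negative cells and -2.33, -2.78 and -2.86 in positive cells. The groups did not overlap, and the difference was 0.67 ± 0.18 (limma adjusted p = 0.029). It was called in 8 of 16 alternatives: it did not pass without Tis21-GFP negative replicate 1, 2 or 3 (0.64, 0.60 and 0.76), without positive replicate 1 (0.50), under shared-probe scaling (0.49), with normexp background (0.29), when dim probes were tested too or with a variance trend and robust fit. Its relatives Ifit1 and Ifit3 were not well above background on any array. Isg15, a ubiquitin-like protein that is attached to other proteins, was at -1.17, -0.41 and -0.71 in negative cells and -1.72, -0.78 and -0.94 in positive cells. It was lower in positive cells in all 3 same-numbered pairs, but the groups overlapped and the difference of -0.38 ± 0.28 did not pass (limma adjusted p = 0.34). Usp18, which removes Isg15 from its targets, was not well above background on any array.

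The MHC class I genes were well above background on all 6 arrays, and 2 of 3 were called lower. H2-K1, a class I heavy chain, was at 1.60, 1.74 and 1.84 in negative cells and at 0.57, 0.57 and 0.54 in positive cells. All positive arrays lay below all negative ones, and the difference was -1.17 ± 0.13 (limma adjusted p = 0.000646), or 2.24-fold. B2m, the light chain shared by class I molecules, was at 1.68, 1.78 and 1.64 in negative cells and 0.88, 1.27 and 0.89 in positive cells. It differed by -0.68 ± 0.15 (limma adjusted p = 0.0142), and did not pass with median centring (-0.50) or without Tis21-GFP negative replicate 2 (-0.64). H2-D1, the other heavy chain, was at 0.89, 1.503 and 1.23 in negative cells and 1.24, 1.16 and 0.88 in positive cells. Those groups overlapped, and the difference was -0.11 ± 0.19 (limma adjusted p = 0.673), with the opposite sign under median centring and without negative replicate 2.

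H2-K1 had 2 probes that disagreed in size. The probe above was printed on 10 spots, and the other, on 1 spot, was at 0.09, 0.26 and -0.19 in negative cells and -0.23, -0.22 and -0.41 in positive cells, a difference of -0.34. With the mean of both probes the H2-K1 difference was -0.75. Class I genes are near-identical paralogs, so which transcripts each probe binds is uncertain. Measured within arrays, which needs no scaling, H2-K1 fell against H2-D1 by 1.05 from negative to positive cells, and with the other H2-K1 probe the within-array change was -0.22. These within-array values are descriptions: the pairs were chosen after the values were seen, and 3 against 3 arrays cannot give an exact permutation p below 0.1.

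Genes that supply and load the peptides were called lower in 2 of 3 tested. Tap2, a subunit of the peptide transporter, was at -1.69, -1.38 and -1.62 in negative cells and -2.88, -2.77 and -3.46 in positive cells. It differed by -1.47 ± 0.20 (limma adjusted p = 0.0017), was called in all 16 alternatives and stood at -0.71 with normexp background. Tapbp (tapasin), which bridges the transporter and class I, was at 0.02, -0.15 and -0.05 in negative cells and -0.30, -0.43 and -0.50 in positive cells. The groups were apart, but the difference of -0.35 ± 0.13 did not pass (limma adjusted p = 0.083); it passed under shared-probe scaling (-0.52). Within arrays, and again as a description, the difference between Tap2 and Tapbp shifted by -1.13 and that between Irf1 and Irf3 by -1.11.

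Psmb9 and Psmb8 are catalytic subunits that replace constitutive ones in the immunoproteasome. Psmb9 was at -3.10, -3.80 and -3.33 in negative cells and -3.98, -5.75 and -5.44 in positive cells, with 1 positive array well above background. The difference was -1.65 ± 0.43 (limma adjusted p = 0.026). Psmb9 was called in 7 of 15 alternatives: the call was lost under quantile normalization (-1.49), in the authors' processed values (-1.49), with normexp background (-0.32), when dim probes were tested too, or without negative replicate 1 (-1.49) or 3 (-1.61) or positive replicate 2 (-1.30) or 3 (-1.46). Psmb8 and Tap1 were not well above background on any array. Psmb9 and Tap1 lie head to head on opposite strands. A probe below the background level, as for Tap1, does not show that the transcript is absent. Because Psmb9 was tested and Tap1 was not, the 225 bases between their annotated starts (chr17:34187331-34187555, plus strand of GRCm38.p6) are shown. They hold no match to the ISRE core.
Psmb9-Tap1: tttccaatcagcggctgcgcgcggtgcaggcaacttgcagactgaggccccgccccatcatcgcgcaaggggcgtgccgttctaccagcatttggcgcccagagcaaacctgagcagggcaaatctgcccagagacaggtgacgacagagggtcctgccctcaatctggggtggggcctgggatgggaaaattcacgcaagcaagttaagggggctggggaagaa

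**Figure D3:**
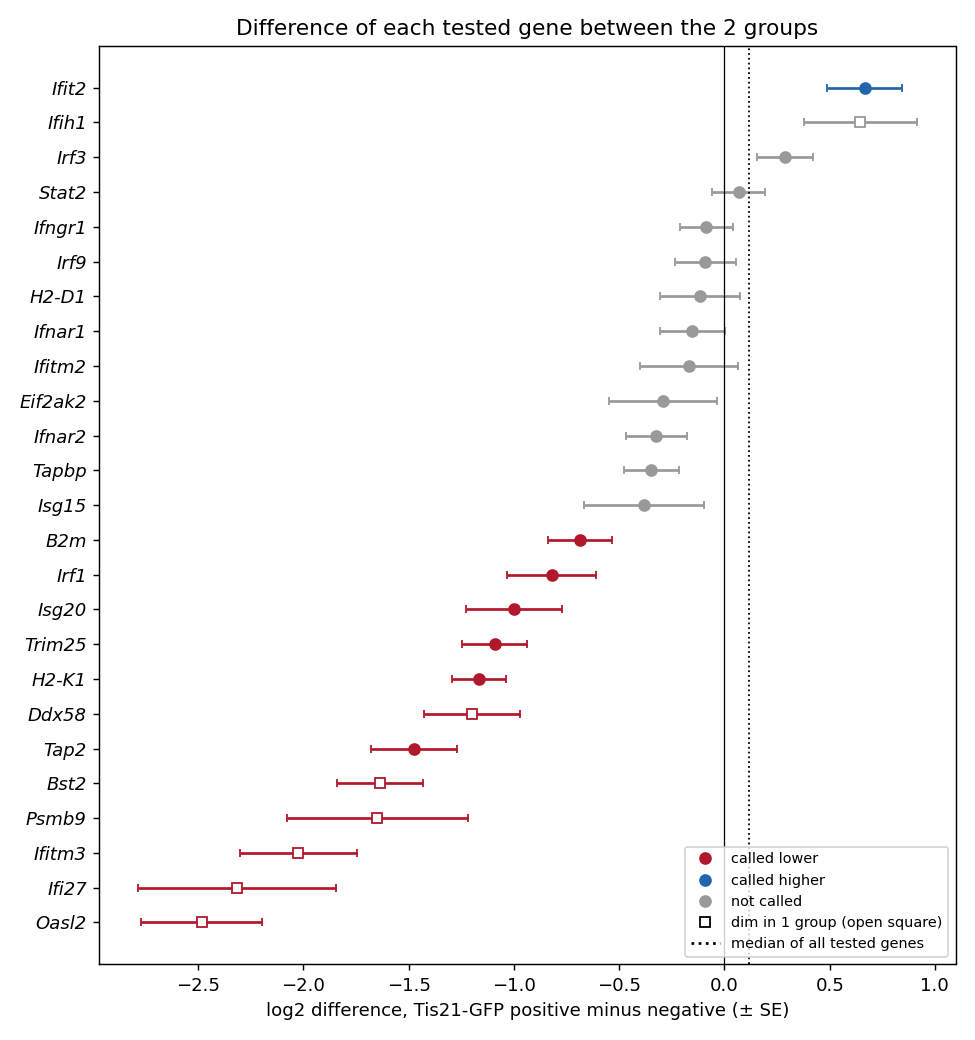
Log2 difference of the 25 tested genes, positive minus negative, with the moderated SE as bars. Red is called lower, blue called higher and grey not called; open squares had a probe dim on at least 1 array of 1 group, and the dotted line is the median of all tested genes. Of the 25 points, 21 lie below 0, from -2.48 for Oasl2 up to -0.09 for Ifngr1, and Ifit2 is the highest at 0.67.

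Other genes of the pathway were called in both directions. Over all tested genes 13.1% were called lower and 12.8% higher, and the counts of the lists below are to be read beside these shares. Of 17 tested genes of interferon signalling outside the 33, 4 were called lower and 0 higher (median -0.11). They were Ptpn6, a phosphatase of blood cells (-1.98 ± 0.29), Irf5 (lower bound 2.75-fold), Irf8 (-0.78 ± 0.21) and Irf2bp2 (-0.68 ± 0.20). Irf5 and Irf8 are factors of myeloid cells. With the replicate block 5 were called lower and 1 higher. Of 12 tested sensors and adaptors, 3 were called lower and 0 higher (median -0.45), and 7 were called lower with the replicate block. Mavs, the mitochondrial adaptor of Ddx58 and Ifih1, was at -0.35, -0.23 and -0.31 in negative cells and -0.98, -1.58 and -1.70 in positive cells. Its groups did not overlap, and Mavs differed by -1.12 ± 0.20 (limma adjusted p = 0.00513). Traf3 differed by -0.81 ± 0.12 and Sting1 by -0.64 ± 0.18.

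Of 47 other interferon-induced genes 22 were tested, and 4 were called lower and 2 higher (median -0.15). Cmpk2, a nucleotide kinase, rose by 1.21 ± 0.24 (limma adjusted p = 0.00858). Ifi204 differed by -2.57 ± 0.29, Samhd1, which hydrolyses deoxynucleotides, by -0.68 ± 0.13, Nmi by -0.79 ± 0.18 and Shisa5 by -0.70 ± 0.14. With median centring the number called lower was 1, since Samhd1 (-0.50), Nmi (-0.61) and Shisa5 (-0.52) did not pass. Nmi was also lost with normexp background (-0.36), and Shisa5 with the mean of its probes (-0.37). Of 19 tested genes of antigen presentation outside the 33, 2 were called lower and 1 higher (median -0.05): H2-DMa (-1.01 ± 0.19), Rfx5 (-1.33 ± 0.38) and Cd1d1 (0.88 ± 0.16). H2-DMa and Rfx5 were each well above background on 1 positive array, and with normexp background H2-DMa stood at -0.15 and was not called. With the replicate block 3 genes of this list were called lower and 2 higher. The medians of the signalling, interferon-induced and antigen presentation lists turned positive under median centring. That of the interferon-induced list was also positive with normexp background (0.007). For antigen presentation it was also positive when dim probes were tested too (0.021), without Tis21-GFP negative replicate 2 (0.036) and without positive replicate 3 (0.073). The call was kept in 7 of 15 alternatives for Rfx5 and, of 16, in 7 for Irf8, 9 for Irf2bp2 and 6 for Sting1.

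The constitutive 20S proteasome was measured in all 14 members. The immunoproteasome replaces only the catalytic subunits Psmb5, Psmb6 and Psmb7 and shares the others. Of these 5 were called higher and 0 lower, with a median difference of 0.43, which lay between 0.15 and 0.61 over the alternatives. Psmb7, the constitutive counterpart of another immunosubunit, rose by 0.62 ± 0.17 (limma adjusted p = 0.0288) and Psmb2 by 0.78 ± 0.19. Of 16 alternatives, 8 kept the call for Psmb7 and 11 for Psmb2, and Psmb7 stood at 0.37 with quantile normalization and in the authors' processed values. Psmb6, the counterpart that Psmb9 replaces, had a difference of 0.32 ± 0.14 (limma adjusted p = 0.119), and Psmb5, replaced by Psmb8, 0.43 ± 0.13 (limma adjusted p = 0.0512). The number called higher ranged from 0 to 10 over the alternatives. It was 0 under shared-probe scaling, when dim probes were tested too and without Tis21-GFP negative replicate 1, and 10 with a variance trend and robust fit.

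Markers of microglia and of meningeal cells were called lower beside the interferon genes, and those of other cell types differed in how many were called. Of 16 tested microglia and macrophage markers 14 were called lower and 0 higher, with a median of -2.38. Their summed signal, in units of the 75th percentile, was 48.1 to 52.1 on the negative arrays and 24.8 to 30.7 on the positive arrays. Such a sum is set mainly by the brightest probes of a list, so it need not move with the median. For the endothelial and pericyte list below, the sum was higher on positive arrays although the median difference was negative. Aif1, C1qa and Trem2, which define these cells, remained well above background on the positive arrays, whereas P2ry12 and Laptm5 did not on any. Of 9 tested meningeal and mesenchymal markers 9 were called lower (median -3.04; summed signal 5.39 to 10.5 on negative and 0.747 to 1.1 on positive arrays), and on positive arrays Col3a1, Lum and Pdgfra were not well above background. Of 8 tested endothelial and pericyte markers 5 were called lower (median -1.23; summed signal 8.26 to 9.45 on negative and 9.55 to 10.6 on positive arrays), and on positive arrays Pdgfrb, Rgs5 and Abcc9 were not well above background. With signal required on all 6 arrays, 11 of 12 microglia and macrophage markers and 3 of 3 meningeal markers were called lower. Of 4 endothelial and pericyte markers 2 were then called lower and 1 higher (median -0.65). The markers that dropped out had entered the test through 1 group only. Of 4 tested lymphocyte markers 1 was called lower, and of 6 tested erythroid markers 1. The medians of the lymphocyte and erythroid lists were -0.0042 and -0.65. Radial glia markers were called lower in 7 of 8 (median -0.96). Of 6 markers of postmitotic neurons 4 were called higher and 2 lower (median 0.82). With quantile normalization and in the authors' processed values 2 were called higher, since Tubb3 and Tbr1 did not pass. In both settings 4 endothelial and pericyte markers were called lower, and Cldn5 (-0.77) did not pass. The part of any of these cell types in the lower interferon and class I signal was not tested.

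**Figure D4:**
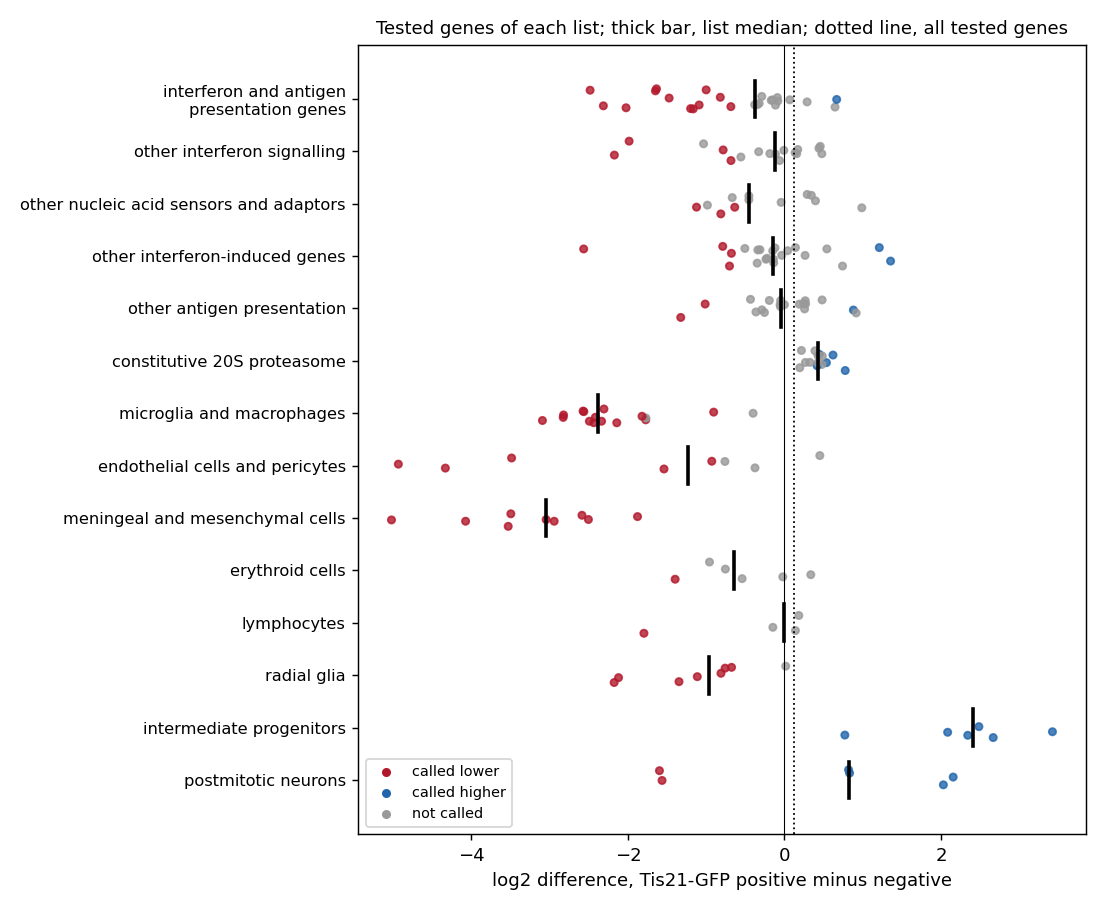
Log2 difference, positive minus negative, of every tested gene in the 33-gene list and in the other lists; points are genes, thick bars list medians, and the dotted line is the median of all tested genes. The interferon and antigen presentation genes have a median of -0.38, the microglia and macrophage markers -2.38 and the constitutive 20S proteasome 0.43.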

How the data were processed

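Amplified cRNA from 50 ng of total RNA, carrying Cy3, was read on 1-colour Agilent arrays, per the labels' protocols. Spot intensity comes from the deposited scanner output of Feature Extraction 10.7.1.1, named in the submitters' processing notes, and is not scaled between arrays. A second table by the authors gives processed log2 values (correlation with the scanner values at least 0.999, median 4.66 on each array); how they were scaled was read from the values alone, and it served as an alternative. Control spots and 118 to 191 outlier spots per array were left out, and 0 spots were saturated. Spots of a probe were averaged as log2 intensity, and each array's 75th percentile (213 to 341 intensity units) was subtracted. Probes well above background on all 3 arrays of a group were kept, and the probe of highest mean stood for its gene. Of 55681 probes, 26370 were named through RefSeq (GRCm38.p6), from which only promoter coordinates were taken.

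Groups were compared with limma 3.58.1 (R 4.3.3, lmFit and eBayes, Benjamini-Hochberg over all genes). The fit was tested on simulated data with 3 against 3 arrays. It recovered 56% of changes of log2 size 1 and 94% of size 2, and 5.66% of its calls were unchanged genes. A gene that was not called is therefore not shown to be unchanged. Members, lists and tests were chosen with earlier results of these data known. All 33 members are named, with up to 4 called genes of each other list; further genes were named after their values were seen. Of the other interferon-induced genes, 1 called gene is not reported here. Same-numbered arrays correlated in their deviations from the group means at 0.23, 0.13 and 0.37 (over 0.1 for every pair), and the numbers are therefore read as pairs. The main fit, which gave the calls and p-values, used the group only. Pairs entered the fit only in the alternative called replicate block. All arrays came from 1 slide and 1 scan. P-values measure the spread between these 3 pooled samples per group, whose number limits the precision. For a lower bound on a fold, each array of the dim group took its weakest signal still called well above background. The dim probe's own value was used if that was higher. Such a bound is a point value from group means and carries no error.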

Additional observations from a re-analysis of the deposited data

How the results depend on the processing

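Of 13 called members, 7 kept their call under every alternative that tested them (Ddx58, Trim25, Oasl2, Bst2, Ifi27, H2-K1 and Tap2), and 0 called members changed sign. Trim25, H2-K1 and Tap2 were called in all 16 alternatives. Ddx58, Oasl2, Bst2 and Ifi27 entered through the negative arrays only, and requiring signal on all 6 arrays left them untested. The number of members called lower was 6 when signal was required on all 6 arrays, which removes 7 members from the test, and 10 to 12 when 1 array was left out. The number called higher was 0 under shared-probe scaling, with normexp background, when dim probes were tested too and with a variance trend and robust fit, and 0 to 1 when 1 array was left out. The members' median difference was -0.20 with median centring, -0.56 under shared-probe scaling, -0.34 with normexp, -0.31 with signal required on all 6 arrays, and -0.58 to -0.39 when 1 array was left out. Among uncalled members, signs turned for Stat2 (-0.036 with quantile normalization, -0.037 in the authors' processed values, -0.11 under shared-probe scaling, -0.078 with normexp), and with median centring for H2-D1 (0.066), Ifitm2 (0.012), Ifnar1 (0.029), Ifngr1 (0.096) and Irf9 (0.090). With 1 array left out, H2-D1 ranged from -0.27 to 0.033 and Ifitm2 from -0.37 to 0.098. The cause was not tested.

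Over all genes, 1687 were called higher and 1716 lower. The number higher was 933 under shared-probe scaling, 1123 in the authors' processed values, 896 when dim probes were tested too, and 791 to 1749 when 1 array was left out (796 without Tis21-GFP negative replicate 1, 791 without negative replicate 3, 1057 without positive replicate 1). The number lower was 1196 to 1724 when 1 array was left out. The share of calls that were higher was 49.6%, against 65.8% with median centring, 29.1% under shared-probe scaling, 39.6% with quantile normalization, 39.5% with the authors' values and 40.2% with normexp. With the replicate block the members' counts were 1 higher and 12 lower, and the pairing changed no member's call.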
